A study of Homo sapiens with 9 samples.

Results

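Of the regions bound by the ETS protein ERG in RWPE-1 prostate epithelial cells, 1252 met no peak of any other factor mapped in the same study and 1062 met at least 1. These ERG-only regions were selected by overlap alone. The 6 deposited peak lists were pooled, peaks overlapping by 1 bp or more were joined into connected regions, and regions that held FLAG-ERG peaks and none from the other 5 lists were kept. They make up 5.18% of the 24166 joined regions of the series, and each consists of 1 FLAG-ERG peak. The values that chose them are the positions of the peaks, so their number and their lack of overlap are a description and carry no test.

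The study used chromatin immunoprecipitation followed by sequencing (ChIP-seq), which recovers and sequences the DNA held by a protein in fixed cells. RWPE-1 is a human line of prostate epithelium immortalised without becoming tumorigenic. FLAG-tagged ERG and FLAG-tagged ETV1 were each introduced into it by retroviral expression and precipitated with an antibody to the tag, whereas endogenous ETS1 and GABPA were precipitated with antibodies to the proteins. PC3, a line from metastatic prostate carcinoma, received no retrovirus and gave lists for ETV4 and for JUND. There was 1 library per factor, and 3 further libraries, the input of each line and a FLAG precipitation of RWPE-1 without retroviral protein, were not analysed here. How much of the ERG-only set the FLAG antibody would also recover without ERG was therefore not tested. The level of the expressed protein relative to an ERG rearrangement in a tumour is not given in the sources used here.

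ETS proteins share a DNA-binding domain that reads a GGAA core, so different members can occupy the same site. ERG is largely silent in normal prostate epithelium and is switched on in many prostate cancers when its gene is fused to the androgen-responsive TMPRSS2 gene. ETV1 and ETV4 belong to the PEA3 subfamily and are rearranged in a smaller fraction of these tumours. ETS1 is a target of Ras/MAPK signalling, GABPA is an ETS protein found in most cell types and known for binding promoters, and JUND is a subunit of AP-1, which can bind next to ETS proteins at enhancers. Regions are given by position on hg18, the build of the lists, with starts counted from 1.

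ERG-only regions were 54.1% of the FLAG-ERG list (Wilson 95% interval 52.1 to 56.1%). This was the lowest single-list share of the 6 factors. The corresponding shares were 67.8% for JUND, 69.6% for ETV4, 72.2% for ETS1, 82.8% for ETV1 and 90.8% for GABPA. Of the 1062 FLAG-ERG peaks outside the set, 661 joined 1 other list, 290 joined 2, 100 joined 3 and 11 joined 4. ETV1 alone accounted for 401 of them, GABPA alone for 90, ETS1 alone for 60, JUND alone for 57 and ETV4 alone for 53. A further 47 joined ETV4 and JUND but no RWPE-1 list. The PC3 lists by themselves thus kept 157 FLAG-ERG peaks out of the set, 6.78% of the list. The intervals here and below cover counting error only. Neighbouring regions are not independent, so the intervals are narrower than the true uncertainty, and none of them describes variation between cultures.

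**Figure D1:**
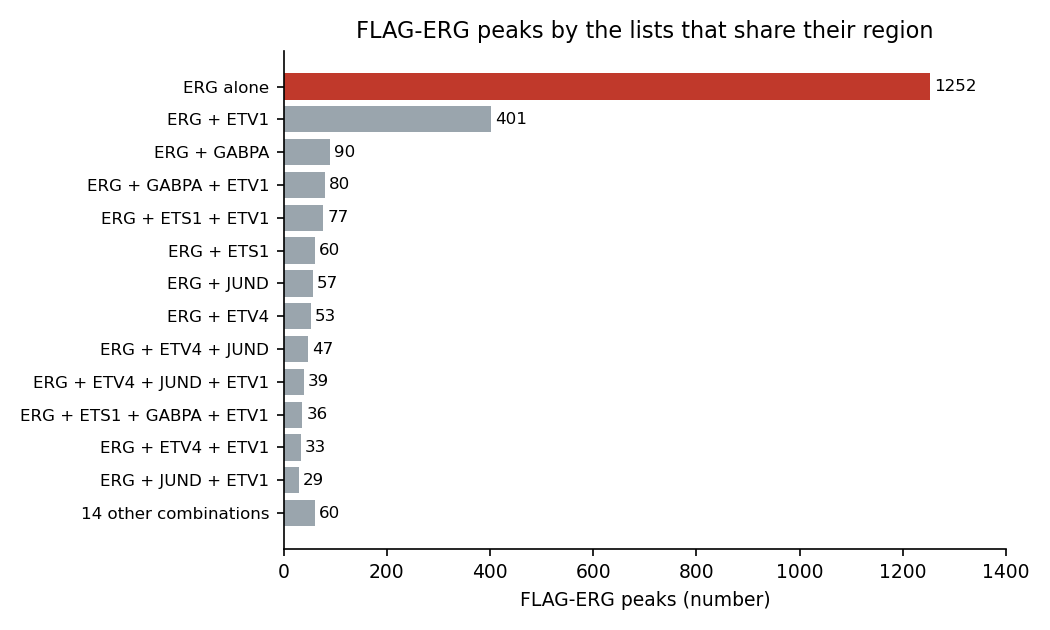
Number of FLAG-ERG peaks (horizontal axis) by the combination of lists whose peaks share their joined region (vertical axis); the red bar is the ERG-only set. The 1252 ERG-only regions exceed the next combination, ERG with ETV1, which holds 401.

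The boundary of the set was narrow for a small part of it. The member closest to another list, chr9:110364150-110364626, lay 9 bp from a GABPA peak. It was followed by chr8:61726905-61727378 (16 bp from ETS1), chr20:32995275-32995759 (25 bp from ETV1), chr9:132002108-132002606 (35 bp from ETV1) and chr5:177789110-177789585 (36 bp from ETS1). Just outside it, the FLAG-ERG peak chr8:124263445-124263944 overlapped an ETV1 peak by 16 bp, chr8:145085857-145086353 overlapped JUND by 17 bp and chr16:29782247-29782729 overlapped GABPA by 18 bp. Next came chr1:199704377-199704865 with ETV1 and chr19:51981410-51981894 with ETS1, each with 21 bp. In all, 20 members lay within 100 bp of a peak of another list and 93 within 500 bp, 7.43% of the set. Among the FLAG-ERG peaks outside it, 46 had a largest overlap under 100 bp, and the median largest overlap was 374 bp.

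Gaps beyond the overlap were not used by the rule and differed between the lists. ETV1, the other FLAG-tagged protein, was the nearest neighbour of 526 of the 1252 members (42.0%), GABPA of 366 (29.2%), JUND of 133 (10.6%), ETS1 of 120 (9.58%) and ETV4 of 107 (8.55%). The lists differ in size, with 31.9% of all peaks of the series in the ETV1 list, 29.4% in GABPA, 11.5% in ETV4, 10.8% in JUND and 7.95% in ETS1. The remaining 8.44% are FLAG-ERG peaks, which cannot be the nearest peak of another list. Among the other 5 lists alone each of these shares is therefore larger. The list closest in size to ETV1 is GABPA. The median gap from a member was 37.5 kb to ETV1 and 51.7 kb to GABPA. An ETV1 peak lay within 10 kb of 323 members (25.8%, 23.5 to 28.3%) and a GABPA peak within 10 kb of 218 (17.4%, 15.4 to 19.6%). Within 500 bp the counts were 52 for ETV1 and 15 for GABPA.

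For ETV1, ETS1, JUND and ETV4, ERG-only regions were denser below 500 bp than at 5 to 10 kb, and for GABPA these ranges were closer. For ETV1, the number of members per kb of gap was 104 below 500 bp, 58 from 500 bp to 1 kb, 42 from 1 to 2 kb, 29.3 from 2 to 5 kb and 22.4 from 5 to 10 kb. For GABPA the corresponding values were 30, 30, 22, 26 and 17.6. For JUND they were 24, 12, 16, 9.33 and 6.6, for ETS1 26, 12, 22, 9.33 and 7.6, and for ETV4 22, 6, 14, 6 and 5.8. The first bins of JUND, ETS1 and ETV4 hold 12, 13 and 11 members, so their shape near the peak is imprecise. A rise towards short gaps was not particular to the ERG-only set. Of 1575 regions held by ETS1 alone, 39 had an ETV1 peak within 500 bp and 320 within 10 kb. For the 7326 regions held by GABPA alone these counts were 105 and 1189. Per kb of gap and per 1000 peaks of the list, the first bin held 11.9 members for both ETS1 and ETV1, 8.07 for JUND and 3.72 for GABPA, with ETV4 between JUND and GABPA. Of the 52 members with an ETV1 peak within 500 bp, 1 had a nearest ETV1 peak that shared a joined region with another FLAG-ERG peak. The FLAG-ERG list has no 2 peaks closer than 784 bp, which limits that number by itself. At all 52 members an ERG peak and an ETV1 peak stood side by side without touching. A shared FLAG-ERG peak lay within 10 kb of 65 members (5.19%), and another member within 10 kb of 71 (5.67%). Any other FLAG-ERG peak lay within 10 kb of 10.5% of the members and of 9.60% of the shared peaks, and the interval of the difference, shared minus members, ran from -3.38 to 1.55 percentage points.

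**Figure D2:**
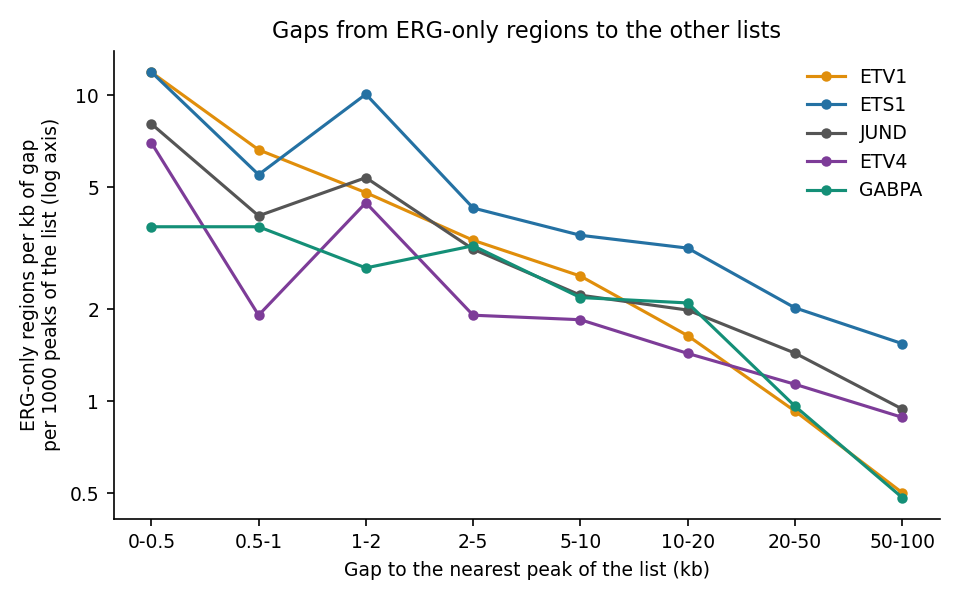
ERG-only regions per kb of gap and per 1000 peaks of the list (vertical log axis) against the gap to the nearest peak of that list in bins (horizontal axis, kb); each line is 1 of the other 5 lists. Per kb of gap and per 1000 peaks, the bin up to 0.5 kb stands at 11.9 for ETV1 and 11.9 for ETS1 (13 members), against 3.72 for GABPA.

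To see whether these neighbourhoods differ from those of other RWPE-1 regions, the ERG-only set was placed beside regions held by ETV1 alone (7230), ETS1 alone (1575) or GABPA alone (7326). Overlap with every other list is barred in each of these sets, so their gaps were set side by side. The bar keeps unlike parts of the lists, 54.1% of FLAG-ERG, 72.2% of ETS1, 82.8% of ETV1 and 90.8% of GABPA. What this and the unknown cut-offs of the lists add to the differences was not tested. Differences are in percentage points with Newcombe 95% intervals, and a difference is described as such only where its interval leaves out 0. ERG-only regions were more often near PC3 JUND peaks than any of the other 3 sets. A JUND peak lay within 10 kb of 95 ERG-only regions (7.59%, 6.25 to 9.19%), of 3.96% of ETV1-only, 4.04% of GABPA-only and 5.46% of ETS1-only regions. The difference was 3.63 points from ETV1-only (2.21 to 5.29), 3.55 from GABPA-only (2.13 to 5.20) and 2.13 from ETS1-only (0.305 to 4.02). The last of these did not hold when ETS1-only regions were weighted to the chromosome shares of the ERG-only set (1.88, -0.00482 to 3.81), when the ETV1 list was left out of the rule (1.56, -0.0900 to 3.23) or within 1 kb (0.676, -0.0965 to 1.56).

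JUND was mapped in PC3 only, so its binding beside ERG in RWPE-1 was not tested. A PC3 JUND peak lay within 500 bp of 0.571% of ETS1-only (0.301 to 1.08%), 0.328% of GABPA-only and 0.221% of ETV1-only regions. Among ERG-only regions, 12 members lay within that distance (0.958%, 0.549 to 1.67%). The closest 3 were chr1:24493997-24494380 at 46 bp, chr1:43820074-43820495 at 76 bp and chr18:8720028-8720458 at 90 bp. All members named in this paragraph were chosen after their values were seen. Of the 12, chr2:100886340-100886825 lay 149 bp from JUND and 139 bp from ETV4, and chr19:1699236-1699716 lay 495 bp and 373 bp from them. Another 3 were nearer to an ETV1 peak of RWPE-1 than to JUND. They were chr1:45046040-45046516 (123 bp from ETV1 and 139 bp from JUND), chr17:58134876-58135277 (242 and 282 bp) and chr1:36611861-36612324 (382 and 400 bp).

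ERG-only regions also had the highest share near PC3 ETV4 peaks. An ETV4 peak lay within 10 kb of 75 ERG-only regions (5.99%, 4.81 to 7.44%), of 3.94% of ETS1-only, 3.50% of ETV1-only and 3.21% of GABPA-only regions. The differences were 2.05 points from ETS1-only (0.452 to 3.74), 2.49 from ETV1-only (1.22 to 3.999) and 2.78 from GABPA-only (1.52 to 4.29). Within 1 kb, where 14 members had an ETV4 peak, the difference from GABPA-only regions held (0.804, 0.327 to 1.56), while those from ETV1-only (0.468, -0.0307 to 1.24) and ETS1-only (0.102, -0.671 to 0.948) did not. The JUND and ETV4 neighbourhoods overlapped, since 33 of the 95 members near JUND were also near ETV4 (34.7%, 25.9 to 44.7%), against 42 of the 1157 others (3.63%). Within PC3, 723 ETV4 peaks lay in a joined region with JUND, as did 24.3% of the JUND peaks with ETV4, so these 2 comparisons are not independent.

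Within RWPE-1, ERG-only regions also lay nearer to ETV1 and ETS1 peaks than the compared sets. An ETV1 peak was within 10 kb of 25.8% of ERG-only, 20.3% of ETS1-only and 16.2% of GABPA-only regions, differences of 5.48 points (2.36 to 8.63) and 9.57 points (7.07 to 12.2). ERG-only regions and the ETV1 list both come from FLAG precipitation after retroviral expression. ETS1-only and GABPA-only regions come from antibodies to endogenous proteins. For ETV1 peaks, here and below, the factor cannot be told apart from the antibody and the retroviral expression. An ETS1 peak was within 10 kb of 107 ERG-only regions (8.55%, 7.12 to 10.2%), 5.31% of ETV1-only and 4.91% of GABPA-only regions, differences of 3.24 points (1.71 to 4.98) and 3.63 points (2.12 to 5.38). The first of these did not hold within 1 kb (0.411, -0.195 to 1.28). For GABPA peaks the differences were smaller. A GABPA peak was within 10 kb of 17.4% of ERG-only and 17.0% of ETS1-only regions, a difference of 0.396 points whose interval ran from -2.39 to 3.22. The difference from ETV1-only regions, 14.6%, was 2.76 points (0.598 to 5.10), and 2.13 (-0.0591 to 4.48) once those were weighted to the chromosome shares of the ERG-only set. Within 1 kb it turned to -0.163 points (-0.975 to 0.897), from 2.40% of ERG-only and 2.56% of ETV1-only regions.

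Shares were also taken among regions with a peak of the list within 100 kb, a comparison added after the first values were seen. It does not hold the density of peaks around a region fixed, so the part of peak-rich stretches was not tested. Of the 422 ERG-only regions with a JUND peak within 100 kb, 22.5% (18.8 to 26.7%) had one within 10 kb. The difference was 6.75 points from ETV1-only (2.64 to 11.3) and 7.53 from GABPA-only regions (3.46 to 12.0). From ETS1-only regions it was 5.03 points, with an interval of -0.152 to 10.3. For ETV1 peaks the share was 34.8% of 928 ERG-only regions, 6.03 points above ETS1-only (1.98 to 10.1) and 10.3 above GABPA-only regions (7.09 to 13.7). For ETV4 peaks the share was 20.5% of 366 regions, and only the difference from GABPA-only regions, 5.41 points (1.16 to 10.2), left out 0. For ETS1 peaks it was 22.5% of 476 regions, 6.02 points above GABPA-only (2.15 to 10.3) and 3.12 above ETV1-only, with an interval of -0.829 to 7.43. For GABPA peaks the share of 26.7% differed by 1.08 points from ETV1-only (-2.14 to 4.49) and by 1.30 from ETS1-only regions (-2.69 to 5.34).

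**Figure D3:**
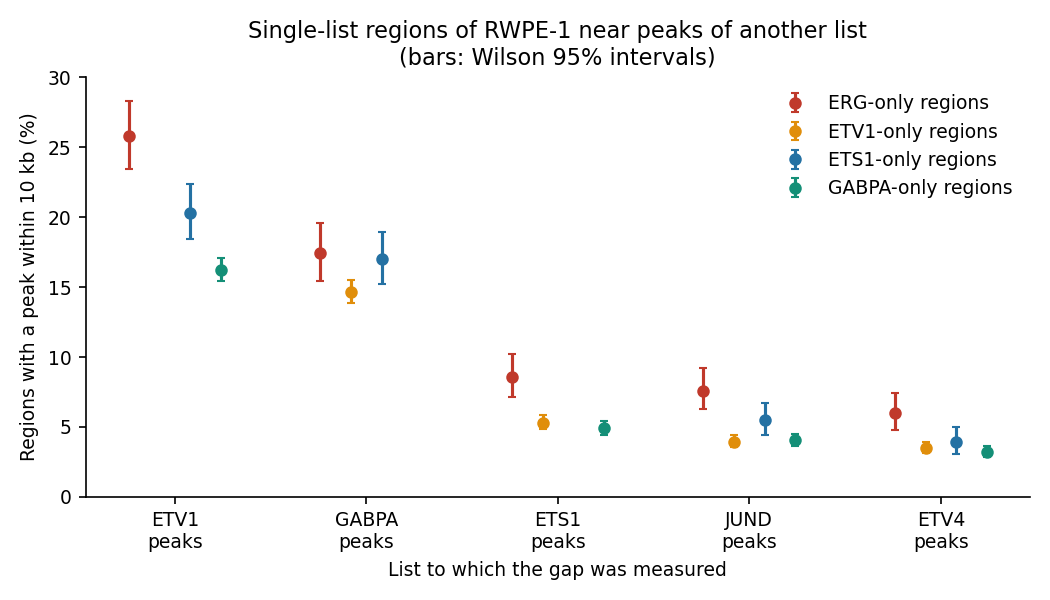
Percent of regions with a peak of the named list within 10 kb (vertical axis) for regions of RWPE-1 in a single list; points are shares, bars Wilson 95% intervals, and a set is not measured against its own list. ERG-only regions stand at 25.8% for ETV1 and 7.59% for JUND, above the compared sets, and at 17.4% for GABPA beside 17.0% of ETS1-only regions.

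Most ERG-only regions had few neighbours at short range. At 10 kb, 701 members (56.0%, 53.2 to 58.7%) had no peak of any other list, 347 had peaks of 1 list, 154 of 2, 38 of 3, 11 of 4 and 1 of all 5. The patterns at 10 kb began with ETV1 alone (170 members), GABPA alone (100), GABPA and ETV1 (52), ETS1 alone (31), ETS1 and ETV1 (30) and JUND alone (29). The member near all 5 lists was chr20:55717040-55717518, which lay 195 bp from ETV1, 1479 bp from ETS1, 4638 bp from GABPA, 9830 bp from ETV4 and 9867 bp from JUND. Of those near 4 lists, the first by position was chr1:37714941-37715428, with JUND at 2213 bp, ETV1 at 2265 bp, ETV4 at 2364 bp and GABPA at 9033 bp. The next were chr1:44174782-44175226 and chr1:224129575-224130075, the first without ETV4 and the second without JUND in reach, and then chr2:43131247-43131700, without ETS1. Members near ETS1 were also near ETV1 in 50.5% of cases (41.1 to 59.8%), against 23.5% of the members away from ETS1 (21.1 to 26.0%). The share near ETV1 was raised beside the other lists too. Its interval was 34.6 to 56.6% for members near ETV4, against a share of 24.6% away from ETV4. For JUND it was 30.7 to 50.1% against 24.6%, and for GABPA 31.9 to 44.7% against 23.2%. A rise was thus present beside each list and was not particular to ETS1. Whether it was larger for ETS1 was not tested, and members near more than 1 list count in each of their shares.

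At the other end, 262 members (20.9%) had no peak of another list within 50 kb, 116 (9.27%) none within 100 kb and 7 (0.559%) none within 500 kb. The gap to the nearest peak of any other list had a median of 13.3 kb and quartiles of 3.33 and 39.6 kb. The most isolated were chrX:131178972-131179446, 1012 kb from the nearest peak (JUND), chrX:100764682-100765160, 802 kb from ETV1, and chr3:118824022-118824503, 776 kb from GABPA. Their widths were 475, 479 and 482 bp, close to the median of the set.

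Most ERG-only regions stood singly. Another member lay within 10 kb of 71 of them (5.67%, 4.52 to 7.09%), in 34 pairs and 1 group of 3. Measured to their own members, the share was 4.19% of 1575 ETS1-only, 11.4% of 7230 ETV1-only and 17.8% of 7326 GABPA-only regions. The difference from ETS1-only regions was 1.48 points, with an interval of -0.116 to 3.15. The larger sets had the larger shares, and the part of set size was not tested. The group of 3 spanned chr8:145663490-145674714, where the only other peak was from GABPA. The tightest pairs spanned 1818 bp at chr11:56948822-56950639, 2010 bp at chr6:31810303-31812312, 2087 bp at chr12:54796360-54798446 and 2153 bp at chr12:51119756-51121908, and no peak of another list lay inside any of these 4. The pair on chromosome 11 was 25289 bp from the nearest other peak (JUND) and the pair on chromosome 6 was 3655 bp from GABPA. On chromosome 12, the first pair was 11754 bp from ETS1 and the second 5893 bp from ETV1.

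By chromosome, the ERG-only set was low on chromosomes 7 and 22. Chromosome 7 held 18 members (1.44%, 0.911 to 2.26%), against 4.09% of ETV1-only, 3.11% of ETS1-only and 4.49% of GABPA-only regions. Chromosome 22 held 1 member (0.0799%, 0.0141 to 0.451%), against 1.09%, 0.889% and 1.88%. Of the 23 chromosomes compared, these 2 were lower than each of the other 3 sets with intervals that left out 0, and none was higher than each. Of the 69 intervals, which were not adjusted for their number, 24 left out 0. Shared FLAG-ERG peaks were also few there, 18 on chromosome 7 and 3 on chromosome 22, so the whole FLAG-ERG list was thin on both. Copy number in the cells used was not measured by these lists, and its part was not tested.

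Chromosome 1 held the most members, 199 (15.9%, 14.0 to 18.0%). That was 4.58 points above ETV1-only (2.52 to 6.82) and 7.50 above GABPA-only regions (5.47 to 9.72), and ETS1-only regions had 14.2% there. The 4 densest adjoining windows of 1 Mb lay at chr1:199000001-203000000 with 11, 9, 8 and 8 members. Together they held 36 members (2.88%), 2.22% of ETS1-only, 0.678% of ETV1-only and 0.519% of GABPA-only regions. Shared FLAG-ERG peaks had 25 there (2.35%, 1.60 to 3.45%). The windows were chosen for their members, so these shares are a description. The first of these windows also held 27 ETV1, 16 ETS1, 12 GABPA, 9 JUND and 5 ETV4 peaks. Windows with 8 members each were also found at chr1:225000001-226000000 and chr8:145000001-146000000, the latter with 28 GABPA and 22 ETV1 peaks.

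Within the FLAG-ERG list, members and shared peaks could be compared chromosome by chromosome. The ratio of the member share to the shared-peak share was highest on X (10 members and 2 shared peaks), chromosome 4 (39 and 23) and chromosome 16 (59 and 39), at 4.24, 1.44 and 1.28. It was lowest on chromosome 22 (1 and 3), chromosome 13 (11 and 17) and chromosome 18 (6 and 8), at 0.283, 0.549 and 0.636. Chromosome 20 had the largest gap in numbers among the low ones, with 73 members and 96 shared peaks. Members were 43.2% of its FLAG-ERG peaks (36.0 to 50.7%), an interval below the 54.1% of the whole list, and on X they were 83.3% (55.2 to 95.3%), an interval above it. On the other 21 chromosomes the interval included 54.1%. These shares depend on how dense the other lists are on a chromosome, which the rule uses.

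**Figure D4:**
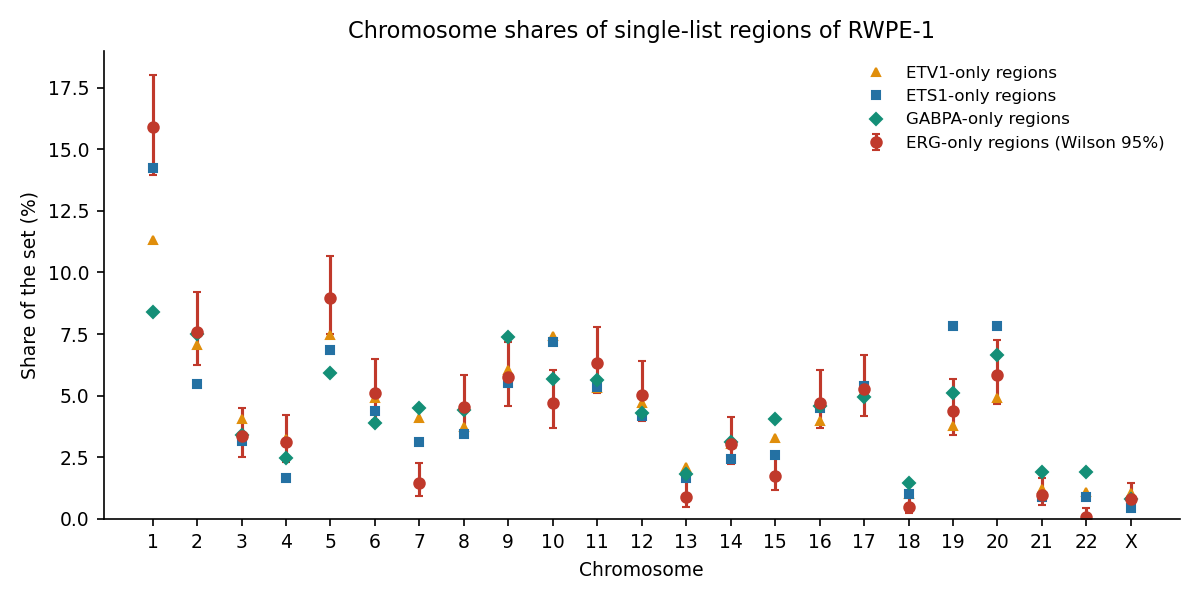
Share of each single-list set of RWPE-1 (vertical axis, %) on each chromosome (horizontal axis); red points with bars are ERG-only regions with Wilson 95% intervals, other markers the 3 compared sets. ERG-only regions reach 15.9% on chromosome 1 and fall to 1.44% on chromosome 7 and 0.0799% on chromosome 22.

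Peak width and place in the file were the remaining measures that the rule did not use directly. The median width of ERG-only regions was 479 bp (95% interval of the median 478 to 482, shortest 211), against 485 bp (483 to 487) for shared FLAG-ERG peaks. Narrow peaks were commoner among members. A width under 400 bp occurred in 112 members (8.95%) and 50 shared peaks (4.71%), a difference of 4.24 points (2.18 to 6.28). A wider peak meets other peaks more easily, so the rule itself can produce part of this difference. Among the compared sets, 7.83% of ETV1-only, 2.92% of ETS1-only and 14.1% of GABPA-only regions made of 1 peak were under 400 bp.

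Members lay evenly along the rows of the FLAG-ERG file. In successive parts of 20% of the rows, 54.4%, 54.6%, 55.4%, 50.1% and 55.9% of the peaks were ERG-only. The first 20% of rows held 20.1% of the members and 19.9% of the shared peaks, and the interval of the difference ran from -3.03 to 3.51 points. The FLAG-ETV1 file was similarly even, with 82.4% of peaks in a single list in its first and 82.7% in its last part. In the other 4 files, single-list peaks were fewer in the first part than in the last, 49.3% and 79.3% for ETV4, 48.6% and 81.8% for JUND, 58.7% and 81.4% for ETS1, and 82.8% and 91.4% for GABPA. What orders the rows is not given in the sources used here, and the lists hold no peak height, so whether ERG-only regions were weaker than shared ones was not tested.

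**Figure D5:**
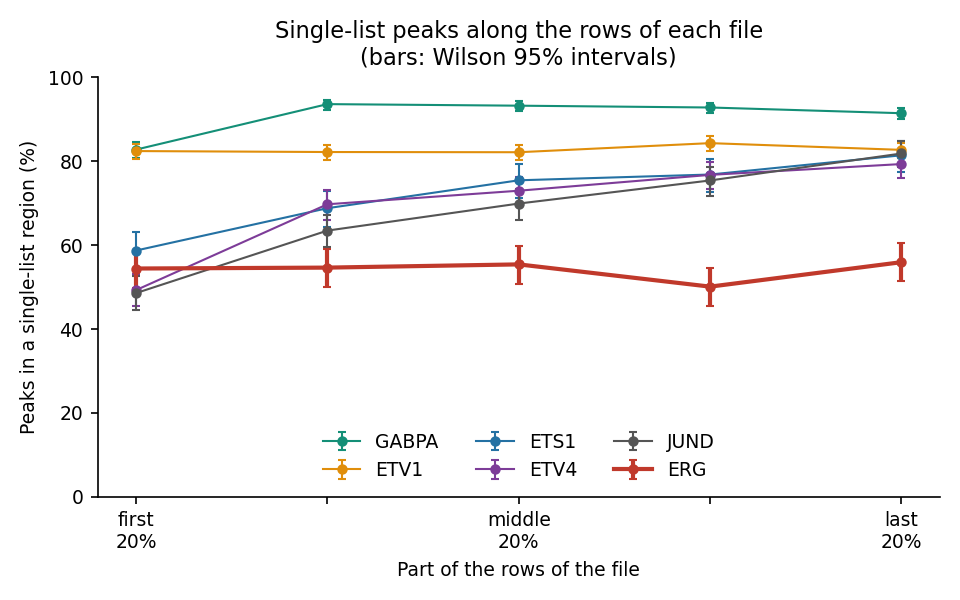
Percent of peaks that lie in a region of that list alone (vertical axis) in successive parts of 20% of the rows of each file (horizontal axis); points are shares with Wilson 95% intervals, 1 line per list. The FLAG-ERG line stays between 50.1% and 55.9%, while the JUND line goes from 48.6% to 81.8%.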

How the data were processed

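ChIP-seq libraries were made with an Illumina kit, per the labels' protocols. For 6 of the 9 libraries, a peak list deposited by the authors was analysed, with 3 columns (chromosome, start, end) on hg18, per the labels. The lists hold 2314 FLAG-ERG, 8736 FLAG-ETV1, 2180 ETS1, 8070 GABPA, 3143 ETV4 and 2973 JUND peaks of at most 501 bp. Which aligner, caller, control and cut-off made them was not given in the sources used here. No list holds a score, so depth and peak strength are unknown. Starts were read as counted from 0.

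Peaks overlapping by 1 bp or more were joined, and gaps were measured between edges. Shares carry Wilson and differences Newcombe 95% intervals, each region counted once. With 1 library per factor, no test over samples was possible. Joining and gaps were tested on simulated data. The members, measures and comparisons were chosen with earlier results of these data known.

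Regions named are the 5 just inside and 5 just outside the rule, the 3 densest 1 Mb windows with ties and neighbours, the 5 longest runs (gaps up to 10 kb), the 3 most isolated, the 5 near most lists, and the 3 chromosomes highest and lowest against shared peaks. Members within 500 bp of JUND were not part of this rule, and those named were chosen after their values were seen. Motif and promoter shares were planned but not run, since no hg18 sequence or annotation was used here. Python 3.11.15, numpy 2.4.6, scipy 1.17.1 and matplotlib 3.10.9 were used.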

Additional observations from a re-analysis of the deposited data

How the results depend on the processing

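The 12 differences between ERG-only and other single-list regions were recomputed under alternative settings. Of the 140 values, 124 kept their direction and their call, that is, whether the interval left out 0. These include values of ERG-only minus ETS1-only for GABPA, whose interval included 0 in the main setting as well. They also include settings in which overlaps count as near, so their agreement says little about gaps. Without the PC3 lists JUND against ETV1-only was 8.85 points, and without the ETV1 list ETV1 against GABPA-only was 24.5. A reciprocal overlap of 50% also lets smaller overlaps in. The autosomes kept 1242 of the 1252 members, so those values could hardly move. ERG-only minus ETS1-only for JUND was 1.56 points with the ETV1 list left out of the rule, 1.88 with chromosome weighting and 5.03 among regions with a peak within 100 kb. That last restriction also ended the calls for ETV4 against ETV1-only (4.15) and ETS1-only (3.03), for ETS1 against ETV1-only (3.12) and for GABPA against ETV1-only (1.08), which chromosome weighting ended too (2.13). ERG-only minus ETS1-only for ETV1 was 3.61 within 50 kb, and its GABPA difference, not called at 10 kb, turned to -0.544 without chromosome 1. Within 1 kb, an alternative added after seeing the data, 5 of the 11 calls ended. JUND against ETS1-only was 0.676 points, ETV4 against ETV1-only 0.468 and against ETS1-only 0.102, and ETS1 against ETV1-only 0.411. GABPA turned to -0.163 against ETV1-only and to -0.334 against ETS1-only. The number of ERG-only regions stayed within 1.5 times 1252 under each alternative.

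The shares within a distance move by construction. Within 5 and 50 kb they were 4.95 and 22.5% for JUND, 3.67 and 18.1% for ETV4, 16.9 and 56.6% for ETV1, 5.51 and 24.6% for ETS1, 10.4 and 49.5% for GABPA, and 3.51 and 20.2% for another member. Under a rule that lets peaks of a list overlap members, shares near that list include those overlaps. They were 14.9% for JUND and 12.7% for ETV4 without the PC3 lists, and 44.0% for ETV1 without the ETV1 list, where 7.89% lay near another member. A reciprocal overlap of 50% gave 8.05% for ETV4, 31.7% for ETV1, 10.8% for ETS1 and 19.8% for GABPA. Joining across 500 bp gave 22.9% for ETV1. The first 50% of rows held 50.6% of members. No paired analysis was possible because each factor has 1 library. Peak strength and depth, absent from the lists, limit every statement to presence in a list.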

Other observations

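Measured from the first and last peak of any list on each chromosome, 15.1% of ERG-only regions lay within 5 Mb of an end of that span (13.2 to 17.2%). Shared FLAG-ERG peaks were at 15.1% as well, ETV1-only regions at 13.4%, ETS1-only regions at 12.8% and GABPA-only regions at 24.7% (23.7 to 25.7%). Of the PC3 lists, JUND-only regions were at 10.5% and ETV4-only regions at 5.67%.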
